A study of Mus musculus with 16 samples.

Results

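MiR-494 (mmu-miR-494) and miR-709 (mmu-miR-709) are 2 of the 566 mouse miRNAs on a one-colour array used to profile mouse liver tumours and control livers. They were taken by their array names. The values that chose them were measured here: both were selected on bright signals outside the usual liver families, and miR-494 on how much it changed from array to array. Each has 2 of the array's 1672 mouse probes, and each probe was printed as 10 spots. Their levels and spreads are therefore given as a description. Only the group contrasts, fitted over the whole table, and 13 correlations of the 2 miRNAs carry tests.

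The tissue came from male C3H/HeJ mice, an inbred strain prone to liver tumours. The study started tumours with the carcinogen diethylnitrosamine (DEN) and promoted part of them with phenobarbital, a drug that activates the nuclear receptor CAR. Groups follow the sample titles. There were 7 Ctnnb1-mutated tumours, in which the mutation activates β-catenin, and 3 phenobarbital controls (numbered 4, 5 and 6), both from mice given phenobarbital for 27 weeks according to the labels. There were 3 Ha-ras-mutated tumours, in which the mutation activates the Ras growth signal, and 3 controls from mice on the diet without phenobarbital for the same time. The last are called untreated controls, only for the missing phenobarbital: the sources used here do not say which controls received DEN. The design text gives a single dose of DEN, 10 or 90 µg per g of mouse, at an age of 2 or of 6 weeks, then 28 to 36 weeks on a diet that held 0.05% phenobarbital or none, while the treatment protocol gives 28 days in drinking water. Which applied to which sample is not settled. Tumour kind and phenobarbital cannot be told apart in any comparison of the tumours with each other. No label ties the samples to animals, so they may share some, and p-values measure only the spread between these samples.

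MiRNAs are small RNAs that bind messenger RNAs through a seed, bases 2 to 8 counted from the 5′ end, and lower their output. Mir494 lies in the Dlk1-Dio3 region, an imprinted stretch that holds one of the largest miRNA clusters of the mouse and is transcribed from the maternal copy. In mouse liver, phenobarbital has been reported to raise RNAs of that region with the help of CAR and β-catenin. MiR-709 is a rodent miRNA that has been reported to enter the nucleus and to bind the primary transcript of miR-15a and miR-16, slowing its processing. In the RefSeq gene table, Mir494 lies on chromosome 12 inside no other gene, with 39 other miRNA genes within 50 kb. Mir709 lies on chromosome 8 within the span of Rfx1, a transcription factor gene, with 0 other miRNA genes within 50 kb. The array name miR-494 carries no arm and stands, by the naming of its time, for the 3p strand.

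Both strands of the Mir494 hairpin are shown because the first is the one measured and the second has the seed of another miRNA of the same cluster, miR-410-5p. Capitals mark the seeds. Sequences and positions are from RefSeq (GRCm38.p6), which held sequence for 1 of the 2 miRNAs.
miR-494-3p, chr12:109715367-109715388, plus strand: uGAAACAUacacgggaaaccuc
miR-494-5p, chr12:109715334-109715355, plus strand: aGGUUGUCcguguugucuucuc
miR-410-5p: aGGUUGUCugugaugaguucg
None of the 1738 mature entries other than miR-494-3p has its seed, so no other entry is paired with it by seed here.

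The arrays differed in brightness. The 75th percentile used for scaling lay between 386 and 1248, and 83 to 117 mouse miRNAs were detected per array, 95 to 117 in Ctnnb1 tumours, 85 to 101 in phenobarbital controls, 83 to 100 in Ha-ras tumours and 92 to 102 in untreated controls. A probe counts as detected when over 0.5 of its spots passed the scanner software's mark for well above background. MiR-122, the defining miRNA of hepatocytes, was detected on all 16 arrays with group means from 13.67 to 14.26 on the log2 scale. No spot was saturated. The 16 arrays lay on 3 slides: all 7 Ctnnb1 tumours and 1 Ha-ras tumour shared slide 1, and the other arrays were spread over slides 2 and 3. Ctnnb1 tumours and phenobarbital controls thus shared no slide, and slide and group cannot be told apart in that comparison.

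MiR-494 was detected on all 16 arrays, and 1 control liver stood far above every other sample. Levels are log2 scaled signals with a floor at 4.64. In the untreated controls it measured 6.91, 6.13 and 12.29 in replicates 1, 2 and 3. Replicate 3 was 14.1-fold above the next array, Ha-ras tumour replicate 2, and 52.7-fold above the median of the other 15 arrays. The Ha-ras tumours measured 4.89, 8.48 and 6.57. They hold the lowest array of the series and, apart from untreated control replicate 3, the highest. The phenobarbital controls measured 6.00, 5.66 and 6.62, and the Ctnnb1 tumours ranged from 6.20 to 8.04 with a median of 6.83. All 4 groups overlapped each other. Without untreated control replicate 3, the other 15 arrays spanned at least 12.1-fold, a lower bound because 1 probe of the lowest array lay at the floor. The probe detected on all arrays, A_54_P2824, spanned 15.1-fold over the same arrays.

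**Figure D1:**
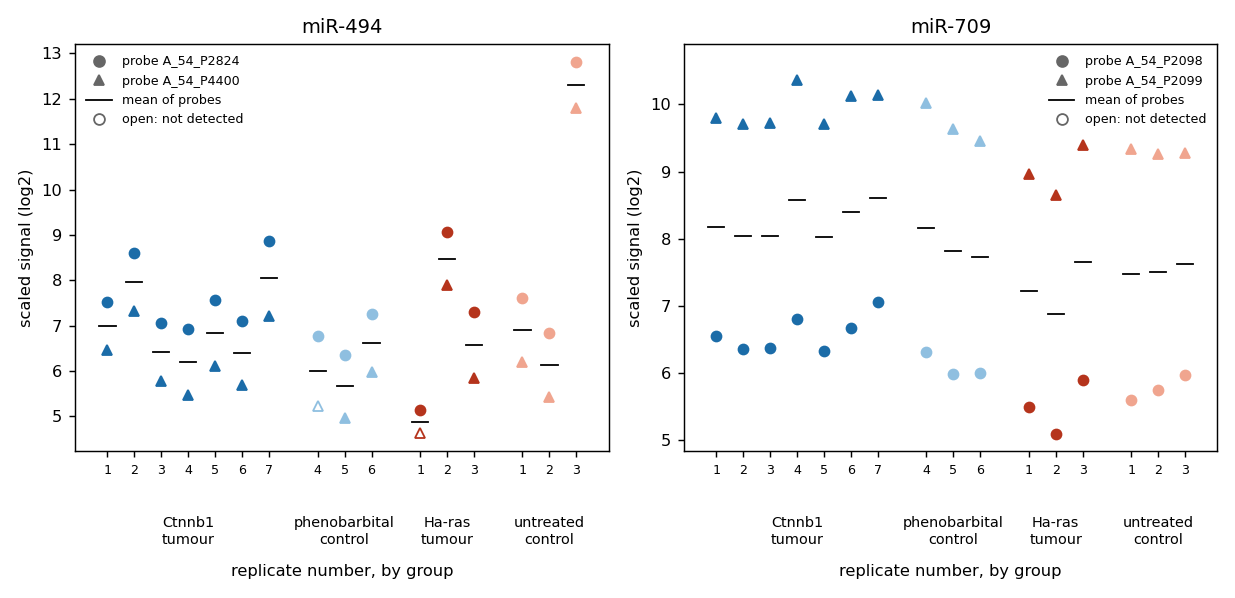
Log2 scaled signal of miR-494 and miR-709 on each of the 16 arrays, by group and replicate number; circles and triangles are the probes of each miRNA, bars their mean, open symbols probes not detected. Untreated control replicate 3 stands at 12.29 for miR-494 (12.80 and 11.79 on its probes). The probe mean of miR-709 stays between 6.88 and 8.61 on all arrays.

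The group means of miR-494 were 8.44 ± 3.36 (SD, n = 3) in untreated controls, 6.98 ± 0.75 (SD, n = 7) in Ctnnb1 tumours, 6.65 ± 1.80 (SD, n = 3) in Ha-ras tumours and 6.09 ± 0.49 (SD, n = 3) in phenobarbital controls. The order has no neighbours that differ beyond their spread. Its within-group SD of 1.65 was the largest among the 72 miRNAs detected on all arrays, whose median was 0.253, and miR-690 came next at 0.914. It stayed the largest without untreated control replicate 3, at 0.982 against 0.790 for miR-690. The within-group SD of miR-709 was 0.261, at rank 32 of 72.

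The high value on that array was present in every spot. Probe A_54_P2824 read 5927 before scaling, with spots from 5357 to 6273, and probe A_54_P4400 read 2940, with spots from 2713 to 3070. All 10 spots of each probe were well above background. Of the 566 miRNAs, 1, miR-494 itself, exceeded its next highest array by more than 1 log2 unit there. The next gaps, listed after their values were seen, were 0.81 for miR-139-3p and 0.49 for miR-801, each detected on that array alone, 0.44 for miR-574-5p and 0.30 for miR-1224. MiR-709 was close between the untreated controls after scaling: its probe A_54_P2099 stood at 9.34, 9.26 and 9.28 in replicates 1, 2 and 3. Before scaling this probe read 672.4, 533.6 and 518.0 there.

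The 2 probes of miR-494 moved together. Their log2 levels correlated across the 16 arrays with r = 0.99, and with r = 0.96 without untreated control replicate 3, as a description, since both probes share sample, array and scaling. Probe A_54_P4400 was not detected on 2 arrays, Ha-ras tumour replicate 1, where it lay at the floor, and phenobarbital control replicate 4, where 2 of 10 spots were well above background. The levels of miR-494 on those 2 arrays, 4.89 and 6.00, are means that include this undetected probe (4.64 and 5.23) beside the detected probe A_54_P2824 (5.13 and 6.77). The spots of a probe varied with a median CV of 5.99% (A_54_P2824) and 7.60% (A_54_P4400).

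The 2 probes of miR-709 were detected on all 16 arrays and correlated with r = 0.95, and with r = 0.85 after each group's mean was taken off. Their median spot CVs were 10.3% for A_54_P2098 and 4.26% for A_54_P2099. Their levels lay far apart: A_54_P2098 ranged from 5.10 to 7.07 and A_54_P2099 from 8.66 to 10.36. The level given for miR-709 is the mean of a dim and a bright probe. The difference between them, A_54_P2098 minus A_54_P2099, had a mean of -3.46 and an SD of 0.17 over the 16 arrays. For miR-494, A_54_P2824 minus A_54_P4400 had a mean of 1.29 and an SD of 0.27. The plot of probe against probe shows that arrays high on one probe were high on the other for both miRNAs.

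**Figure D2:**
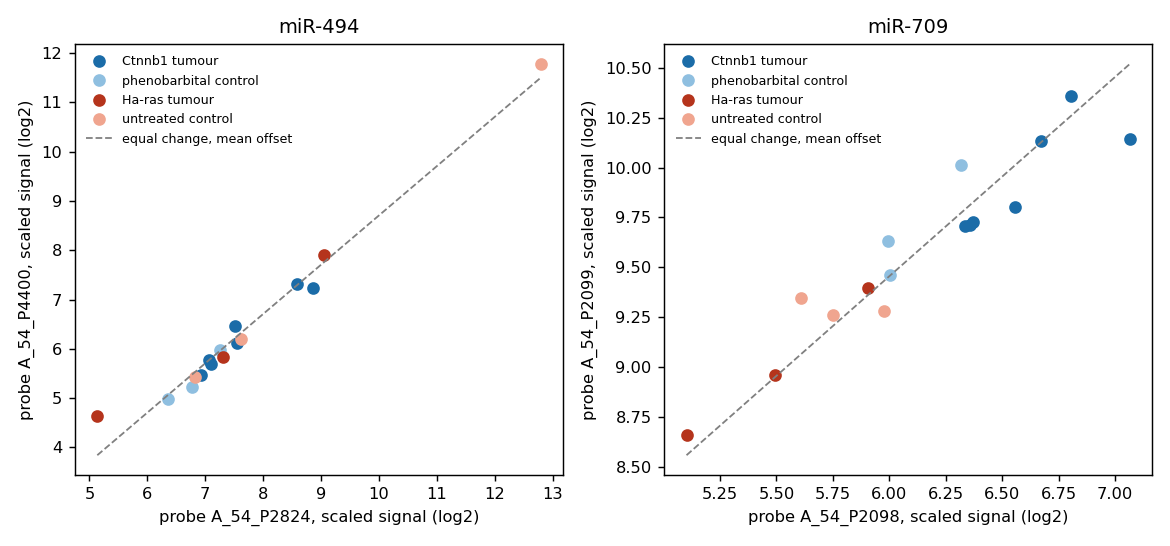
Log2 scaled signal of one probe against the other probe of miR-494 (left) and miR-709 (right), 1 point an array, coloured by group; the dashed line has slope 1 through the mean offset. Points follow the line with r = 0.99 for miR-494 and 0.95 for miR-709, and the lowest miR-494 point lies at the floor of probe A_54_P4400.

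MiR-709 was 2.02-fold higher in Ctnnb1 than in Ha-ras tumours, and its range in each group was narrower than that of miR-494. The Ctnnb1 tumours ranged from 8.02 to 8.61 with a median of 8.18. The phenobarbital controls measured 8.17, 7.81 and 7.73, and the untreated controls 7.48, 7.51 and 7.63. The Ha-ras tumours measured 7.23, 6.88 and 7.65. Every Ctnnb1 tumour lay above every Ha-ras tumour, and every phenobarbital control above every untreated control. The means were 8.27 ± 0.26 (SD, n = 7), 7.90 ± 0.23 (SD, n = 3), 7.54 ± 0.08 (SD, n = 3) and 7.25 ± 0.39 (SD, n = 3) for Ctnnb1 tumours, phenobarbital controls, untreated controls and Ha-ras tumours. No neighbours in this order passed the test.

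Between the tumour kinds, miR-709 differed by 1.02 on the log2 scale (SE 0.17, limma adjusted p = 0.000902 over 96 miRNAs). The exact permutation p was 0.0167, the smallest that 7 tumours against 3 allow. In this comparison 30.2% of the tested miRNAs were called, 16 (16.7%) as higher and 13 as lower (2 and 20 with scaling on all mouse probes), and 18.8% had groups that did not overlap, so the call itself is not rare. Both probes were called: A_54_P2098 at 1.09 (limma adjusted p = 0.000779) and A_54_P2099 at 0.94 (limma adjusted p = 0.00216), where 31.4% of the 159 tested probes were called. Scaling on all mouse probes gave 0.47 (limma adjusted p = 0.257) and no scaling 0.83 (limma adjusted p = 0.0730), both in the same direction. Under the first of these scalings the median over the 96 miRNAs was -0.32 in place of 0.08, and miR-709 stood 0.94 above the median in the main setting and 0.78 above it there. On slide 1 alone, with its single Ha-ras tumour taken to vary as the Ctnnb1 tumours do, the difference was 1.04 (limma adjusted p = 0.0798). A fixed slide term over all arrays rests on the same single Ha-ras tumour and gave the same 1.04 (limma adjusted p = 0.0428), so it is no further check.

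**Figure D3:**
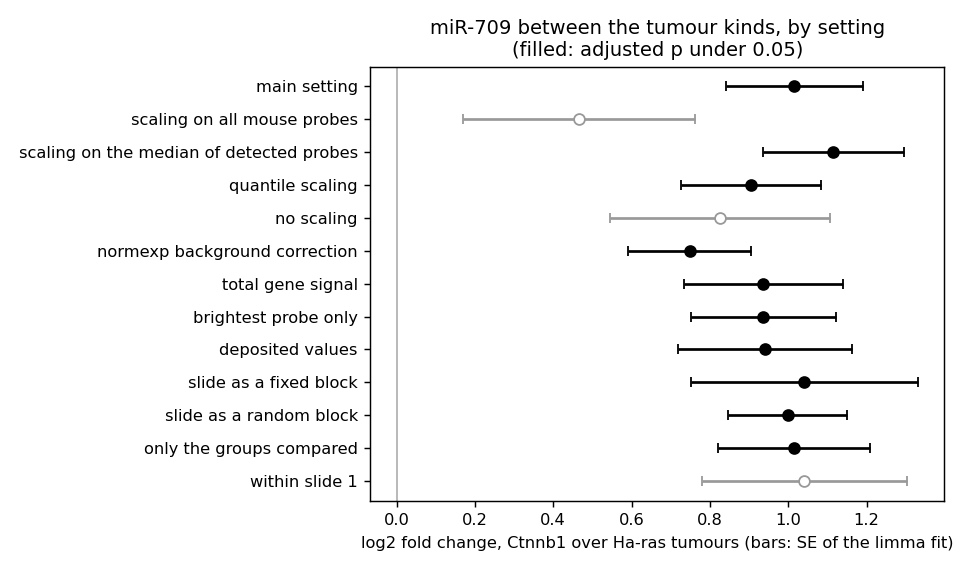
Log2 fold change of miR-709, Ctnnb1 over Ha-ras tumours, under the main setting and 12 alternatives; bars are the standard error of the limma fit, and filled points have an adjusted p under 0.05. All points lie above 0, from 0.47 to 1.12, and the 3 open ones are scaling on all mouse probes, no scaling and the fit within slide 1.

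Against its own control liver, neither tumour kind differed for miR-709 beyond the threshold. In Ctnnb1 tumours it was 0.36 higher than in phenobarbital controls (SE 0.17, limma adjusted p = 0.239), with 4 of 7 tumours above all controls. Of the miRNAs tested in this comparison 8.33% were called. In Ha-ras tumours the difference from untreated controls was -0.28 (SE 0.21, limma adjusted p = 0.357, with 29.2% of miRNAs called), and it changed sign, to 0.29 with scaling on all mouse probes and to 0.12 with no scaling. The difference between the tumour effects was 0.65 (SE 0.27, limma adjusted p = 0.225, with 2.08% called). Between the control livers, miR-709 was 0.37 higher with phenobarbital (SE 0.21, limma adjusted p = 0.583). The groups did not overlap, as for 25% of the tested miRNAs, and the exact permutation p was 0.1, the smallest that 3 against 3 allow. Of the 96 miRNAs 0 (0%) were called between the controls by limma, and 6 of 96 (6.25%) had an unadjusted p under 0.05.

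MiR-494 passed no group comparison. Ctnnb1 tumours were 0.88 above phenobarbital controls (SE 1.03, limma adjusted p = 0.643) and 0.33 above Ha-ras tumours (SE 1.03, limma adjusted p = 0.878). The second value was -0.06 with scaling on all mouse probes. Ha-ras tumours stood at -1.80 against untreated controls (SE 1.22, limma adjusted p = 0.326), but at 0.13 without untreated control replicate 3. Phenobarbital controls stood at -2.35 against untreated controls (SE 1.22, limma adjusted p = 0.559), and at -0.43 without that replicate. The difference between the tumour effects was 2.68 (SE 1.60, limma adjusted p = 0.411), and 0.75 without it. An SE above 1 log2 unit means that a doubling of miR-494 could not have been told from the spread here.

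No relation between the 2 miRNAs was found. Across the 16 arrays miR-494 and miR-709 gave Pearson's r = -0.10 (permutation p = 0.709) and Spearman's rho = -0.03 (permutation p = 0.907). Untreated control replicate 3 lies apart on the miR-494 axis. Without the 2 arrays farthest from the median of miR-494, r was 0.47 over 14 arrays. After the group means were taken off, r was -0.05 (permutation p = 0.868). Within the 7 Ctnnb1 tumours it was -0.03 (exact permutation p = 0.945). On the 8 arrays of slide 1 it was 0.60 (exact permutation p = 0.127), a value that rests on 2 arrays, since r was -0.61 without them. Correlated with the brightness of the array, as the log2 percentile, r was -0.21 for miR-494 (permutation p = 0.432) and -0.21 for miR-709 (permutation p = 0.440). None of the 13 relations computed in this family passed, with a lowest adjusted p of 0.817. Between single probes of the 2 miRNAs r ran from -0.23 to 0.01.

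**Figure D4:**
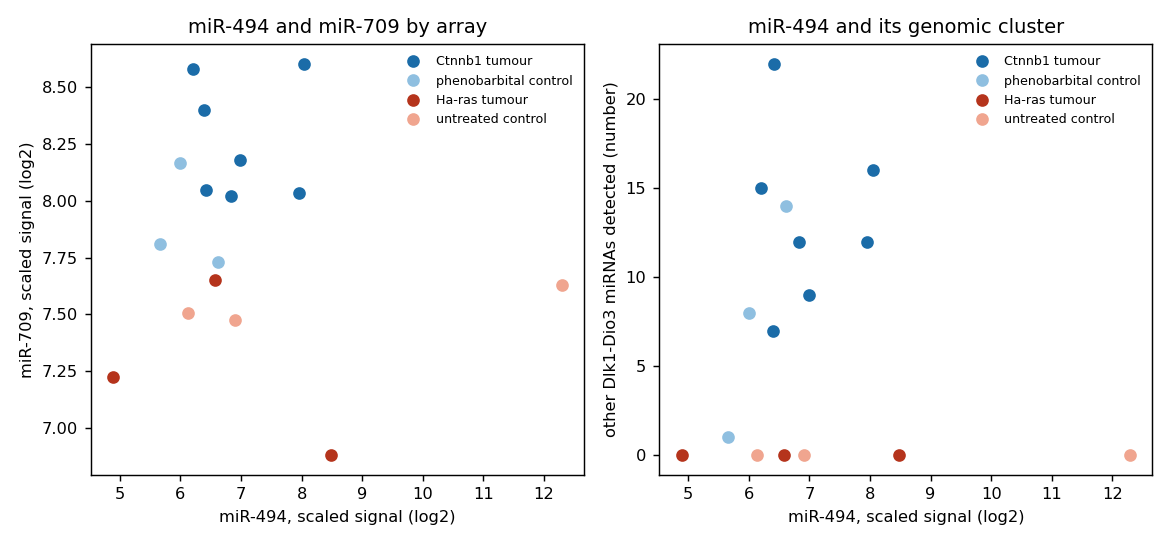
Left, log2 scaled signal of miR-709 against miR-494; right, the number of other Dlk1-Dio3 miRNAs detected against the log2 scaled signal of miR-494; 1 point an array, coloured by group. MiR-709 shows no trend with miR-494 (r = -0.10 over 16 arrays). The 6 arrays of the arm without phenobarbital have 0 other listed cluster miRNAs detected at miR-494 levels from 4.89 to 12.29.

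Other miRNAs of a Dlk1-Dio3 list were detected in the phenobarbital arm and on no array of the other arm. MiR-494 was detected on all 16 arrays. The list holds 68 other entries of the array from this region, and 22 of them were detected on at least 1 array. It was set by miRNA number and leaves out miR-666, whose gene is among those nearest to Mir494. The Ctnnb1 tumours had between 7 and 22 of these detected. The phenobarbital controls had 8, 1 and 14 in replicates 4, 5 and 6. All 3 Ha-ras tumours and all 3 untreated controls had 0. The array with the highest miR-494 of the series, untreated control replicate 3, thus had none of the listed cluster entries detected. Neither did Ha-ras tumour replicate 2. The parting also held inside slides. On slide 1 the Ctnnb1 tumours had 7 or more and the Ha-ras tumour 0. On slide 2 the phenobarbital controls had 8 and 1, and the other 3 arrays 0. On slide 3 the phenobarbital control had 14 and both untreated controls 0.

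The entries miR-127, miR-136, miR-299*, miR-376b, miR-377 and miR-379 were the 6 of the list detected on all 7 Ctnnb1 tumours and so tested. They were not well above background on any Ha-ras tumour or untreated control, so their folds against Ha-ras tumours are bounds, from the Ctnnb1 mean over the lowest detectable signal of each array. MiR-379, the head of a long run of cluster miRNAs, was at least 2.67-fold higher, and ranged from 5.16 to 7.31 in Ctnnb1 tumours and from 4.64 to 6.35 in phenobarbital controls. MiR-136 was at least 2.06-fold higher. No p is given for these folds, since detection in the Ctnnb1 tumours is what let the entries into the test. Of the 6 tested, 5 were called higher and 0 lower, with a median of 1.01 against 0.08 over all 96, but they entered the test only through the group where they were detected, and the count supports nothing. Against phenobarbital controls 0 of the 6 were called in Ctnnb1 tumours. Within the 7 Ctnnb1 tumours, miR-494 and the number of other cluster entries detected gave r = -0.03 (exact permutation p = 0.953) and Spearman's rho = 0.11 (exact permutation p = 0.821).

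Likeness to miR-494 is Pearson's r of log2 levels over 16 arrays, among the 71 other miRNAs detected on all of them, which include 0 other entries of the Dlk1-Dio3 list. It was 0.71 for miR-1224, which is made from a short intron, 0.71 for miR-690, 0.47 for miR-689, 0.39 for miR-30d and 0.33 for miR-27b. MiR-709 was at place 52 of 71. Without untreated control replicate 3 the first were miR-690 at 0.63 and miR-1224 at 0.58. The 2 leading miRNAs are shown to let their seeds be compared with that of miR-494-3p.
miR-690: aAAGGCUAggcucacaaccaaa
miR-1224-5p: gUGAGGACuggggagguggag
The seeds AAGGCUA and UGAGGAC differ from each other and from GAAACAU of miR-494-3p. MiR-690 measured 8.07 on untreated control replicate 3 and 8.10 on Ctnnb1 tumour replicate 7, where miR-494 was highest among the tumours of that kind. On Ctnnb1 tumour replicate 2, with miR-494 at 7.96, miR-690 measured 5.82, its lowest among those tumours. MiR-1224 measured 8.48 on untreated control replicate 3 against 6.83 in untreated control replicate 1. The opposite end, named after its value was seen, was miR-720, an entry since regarded as a fragment of a transfer RNA, with r = -0.82. It measured 9.47 on untreated control replicate 3 against 11.12 and 11.34 in the other untreated controls, and r was -0.34 without that replicate. Under 8 other ways of scaling or summarising, r over 16 arrays was 0.61 to 0.76 for miR-1224, 0.67 to 0.74 for miR-690 and -0.89 to -0.69 for miR-720. All these values share arrays and scaling.

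The miRNAs most like miR-709 were miR-15a (r = 0.83), miR-223 (0.81), miR-19a (0.72), miR-16 (0.66) and miR-15b (0.64). MiR-15a, miR-15b and miR-16 restrain the cell cycle and share a seed, which is why they are shown. MiR-223 marks myeloid cells, and miR-19a belongs to the growth-promoting miR-17-92 cluster.
miR-15a-5p: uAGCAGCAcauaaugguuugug
miR-16-5p: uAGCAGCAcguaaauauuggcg
miR-15b-5p: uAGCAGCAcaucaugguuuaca
miR-223-3p: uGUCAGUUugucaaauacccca
miR-19a-3p: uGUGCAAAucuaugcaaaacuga
MiR-15a ranged from 8.57 to 9.01 in Ctnnb1 tumours and from 7.88 to 8.49 in Ha-ras tumours, with no overlap. MiR-16 ranged from 7.18 to 7.66 and from 6.53 to 7.31, with overlap. Both were higher in Ctnnb1 than in Ha-ras tumours, miR-15a by 0.68 (SE 0.13, limma adjusted p = 0.00164) and miR-16 by 0.52 (SE 0.16, limma adjusted p = 0.0284). But with scaling on all mouse probes they stood at 0.13 and -0.03 (limma adjusted p = 0.697 and 0.929). With no scaling they stood at 0.49 and 0.33 (limma adjusted p = 0.218 and 0.477). MiR-16 also missed the threshold with another background correction, with no filter on dim miRNAs and with only the groups compared. The star strands of miR-15a and miR-16, the other arms of the hairpins, were detected on 0 arrays. MiR-709 has been reported to lower the level of mature miR-15a and miR-16. In the main setting, miR-709 and these miRNAs were higher in the same tumour kind. Tumour by tumour, within the 7 Ctnnb1 tumours, miR-709 and the summed level of miR-15a and miR-16 gave r = 0.22. An action of miR-709 on them was not tested. The likeness of miR-709 to miR-15a lay between 0.71 and 0.90 under 8 other ways of scaling or summarising, and that to miR-223 between 0.73 and 0.89. It was lower with group means taken off: r with miR-709 was 0.46 for miR-15a, 0.32 for miR-16 and 0.65 for miR-223.

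**Figure D5:**
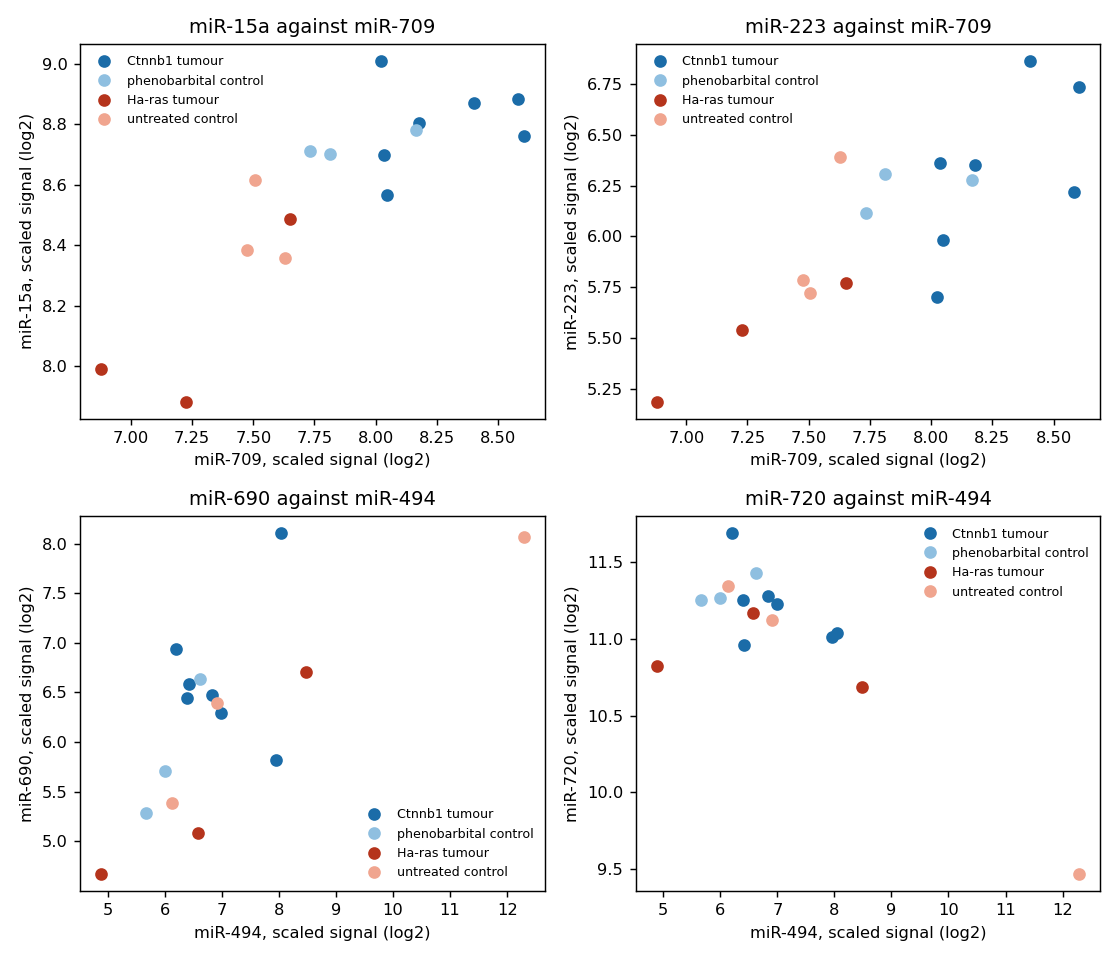
Log2 scaled signals, 1 point an array, coloured by group: miR-15a and miR-223 against miR-709 (top), miR-690 and miR-720 against miR-494 (bottom). MiR-15a and miR-223 climb with miR-709 (r = 0.83 and 0.81), while the low miR-720 value of 9.47 belongs to the array with miR-494 at 12.29.

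Among the summed marker lists of cells other than hepatocytes, the leukocyte sum had the highest correlation with miR-709. The leukocyte list holds 6 miRNAs, of which miR-142-3p, miR-146a and miR-223 were detected on all 16 arrays, miR-142-5p on 3, and the other 2 on none. For its 3 tested members, levels were summed before log2 was taken, so the brightest member weighs most. This sum correlated with miR-709 across 16 arrays with r = 0.68, and within the 7 Ctnnb1 tumours with r = 0.62. The sum ranged from 8.04 to 8.99 in Ctnnb1 tumours, from 8.48 to 8.69 in phenobarbital controls, from 7.46 to 8.83 in Ha-ras tumours and from 7.87 to 8.81 in untreated controls. The groups overlapped in this sum, which they did not for miR-709 between the tumour kinds. With group means taken off, the miRNAs most like miR-709 were miR-142-3p (r = 0.68), miR-146a (0.68) and miR-223 (0.65), 3 of 3 tested members of the leukocyte list. The sum of the hepatocyte list of 5 went the other way, with r = -0.68. In it miR-122 weighs most, with group means from 13.67 to 14.26. The sums ran from 13.43 to 14.38 in Ctnnb1 tumours and 14.17 to 14.42 in phenobarbital controls. They ran from 14.18 to 14.62 in Ha-ras tumours and 14.33 to 14.45 in untreated controls. The erythroid and stromal sums each hold only the 2 entries detected on all 16 arrays, of 3 and 7 listed. They gave r = 0.16 and 0.15 with miR-709. For miR-494 the same sums gave r = 0.16 for the leukocyte and 0.03 for the hepatocyte list. All list sums were taken in the main setting, and their correlations were not recomputed under other scalings. The part of other cells in the level of miR-709 was not tested, and in bulk tissue fewer cells of a type and less RNA per cell cannot be told apart.

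The array's entries numbered near miR-709 were mostly silent, as were most entries of the array. Of all 566 mouse miRNAs, 72 were detected on all 16 arrays. Of the 33 other entries numbered from miR-690 to miR-721, only miR-690 and miR-720 were detected on all 16 arrays, and miR-705 on 1. MiR-690 and miR-720 were called in none of the 5 comparisons. MiR-709 was thus 1 of 3 entries of this number range detected on every array.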

How the data were processed

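MiRNAs were measured on 16 one-colour Agilent arrays (Cy3). The deposited intensity values are background-subtracted spot signals from Feature Extraction 10.7.3.1, not normalised between arrays, per the file headers (build mm9). The deposited log2 table (R 2.14.1 per the submitters' processing notes; normalisation not given in the sources used here) served as an alternative. Outlier spots were dropped and spots averaged per probe. To scale an array, its signals were divided by their own 75th percentile (taken over 117 mouse probes that all arrays detected) and multiplied by a common constant, then raised to a floor of 24.96 and taken to log2, and a miRNA is the mean of its probes. Group means were fitted with limma 3.58.1 (R 4.3.3) over the 96 miRNAs that 1 or more groups detected throughout, with Benjamini-Hochberg adjustment, a threshold of 0.05, and 5 comparisons. The fit was tested on simulated data. The 13 relations of the 2 miRNAs have permutation tests (scipy 1.17.1, 100000 resamples, exact for 7 or 8 arrays), two-sided. Correlations between probes, of likeness and with summed lists are a description without a test. The 2 miRNAs, their lists and the naming rule (5 most alike for each, up to 4 of a list) were chosen with earlier results of these data known. The number of arrays limits precision. Alternatives covered scaling, background correction, probes, filters, slides and left-out arrays.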

Additional observations from a re-analysis of the deposited data

How the results depend on the processing

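Each contrast was recomputed under other scalings, background correction, probe choices, filters, slide blocks and with each array left out. MiR-709 in Ctnnb1 against Ha-ras tumours (1.02) kept its direction throughout, and passed the threshold except with scaling on all mouse probes (0.47), no scaling (0.83) and within slide 1 (1.04, an alternative chosen after seeing the data, with fewer arrays). It ranged from 0.83 to 1.21 with 1 array left out, with adjusted p from 0.000279 to 0.0138. On the probes, scaling on all mouse probes gave 0.55 and 0.39 for this contrast.

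Against untreated controls, miR-709 in Ha-ras tumours changed sign with scaling on all mouse probes (0.29; probes 0.29 and 0.28) and no scaling (0.12), and ranged from -0.48 to -0.10 with 1 array left out. MiR-494 in this contrast changed sign with slide as a fixed block (0.11) and within slide 2 (0.62, chosen after seeing the data), and ranged from -2.95 to 0.13 with 1 array left out, 0.13 being without untreated control replicate 3. Between the tumour kinds miR-494 changed sign with scaling on all mouse probes (-0.055; probes -0.054 and -0.057), and ranged from -0.55 to 1.25 with 1 array left out, -0.55 being without Ha-ras tumour replicate 1. With slide as a fixed block, miR-494 stood at 4.04 in Ctnnb1 tumours against phenobarbital controls and at 2.09 against Ha-ras tumours. Neither passed the threshold (adjusted p = 0.528 and 0.441). Both values rest on the single Ha-ras tumour of slide 1, replicate 1, the array with the lowest miR-494, so they are no further check. The correlation of the 2 miRNAs ranged from -0.26 to 0.035 with 1 array left out: 0.025 without untreated control replicate 3 and 0.035 without replicate 2 of the Ha-ras tumours were above 0. Causes were not tested.

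With the replicate number as a block, miR-494 stood at 0.38 and -1.80 and miR-709 at 0.43 and -0.28 in tumours against their controls, and no call on either changed. Same-numbered samples deviated together in 2 of 6 pairs (r from -0.77 to 0.58), so the numbers were not taken as pairs. Calls ranged between settings from 0 to 20 and 2 to 33 for Ctnnb1 and Ha-ras tumours against their controls. They ranged from 5 to 34 between tumour kinds, 0 to 5 between controls and 0 to 4 for the difference. These fits tested 96 miRNAs, except 566 with no filter on dim miRNAs and 72 with detection required on all 16 arrays. The 0 for the difference came from the fit over 72. The count between tumour kinds was 29, but 5 without Ha-ras tumour replicate 2 and 11 without replicate 1.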
